A study of Mus musculus with 9 samples.

Results

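Molecular chaperones of the cytosol and mitochondria were examined as 38 named genes: the HSP70, HSP110, HSP90 and small heat shock proteins, their J-domain and other partner proteins, the 8 subunits of the chaperonin TRiC, 5 mitochondrial chaperones and 2 heat shock transcription factors. They were picked out of the tables by gene name, from a list drawn up with earlier results of these data known. Genes had to be among the 12849 with enough reads to be tested, of 55536 genes counted, so all 38 were tested. RNA was sequenced from mouse spleen B cells labelled pre-GC, a stage before the germinal centre, in which B cells multiply and mutate their antibody genes. The 9 libraries fell into 4 of genotype WT and 5 of genotype p52Ki, whose titles read as a knock-in of p52 on both alleles. p52 is the DNA-binding protein made from Nfkb2, and the series title pairs it with the transcription factor ETS1. The making of the knock-in, the strain, age and immunisation of the mice and the sorting gates were not given in the sources used here. Nothing in the labels ties the libraries of a genotype to different mice, and the p-values therefore reflect only how these libraries vary, which may be partly technical.

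Chaperones bind proteins that are not yet folded or have come unfolded. HSP70 holds exposed stretches in an ATP-driven cycle that J-domain proteins start and exchange factors reset, HSP90 takes over signalling proteins such as kinases and receptors, and chaperonins enclose a protein in a chamber, where TRiC folds actin and tubulin. When unfolded proteins build up, the transcription factor HSF1 binds heat shock elements, repeats of a short unit in alternating orientation, and switches on the inducible members of these families, while their constitutive relatives are made at all times.

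Inducible Hspa1a and Hspa1b were about 19.3-fold and 17.9-fold lower in p52Ki than in WT, and Hsph1 was lower by 0.85 on the log2 scale. Cct5, Tcp1 and Cct2, which encode subunits of TRiC, were lower by 0.55 to 0.60. No call was made in mitochondrial chaperones, in HSP90 and its partners, in J-domain proteins or in heat shock factors. Of the 38 genes, 6 were thus called lower in p52Ki (15.8%) and 0 higher, with 16 at an unadjusted p under 0.05 (edgeR quasi-likelihood test, Benjamini-Hochberg adjusted p under 0.05 over all 12849 genes). Of all genes tested, 8.53% were called in either direction, 4.04% lower and 4.49% higher. Among all 12849 genes, 2750 had an unadjusted p under 0.05, which is the background for such counts here and below. The log2 fold change was negative for 30 of the 38 genes, with a median of -0.34 against 0.03 over all genes tested. In 7 of the 38 (18.4%), every p52Ki library lay below every WT library, against 6.53% of all genes, and in 0 did every p52Ki library lie above, against 7.3%.

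The libraries held 7368604 to 7937579 counts in WT and 4492160 to 6647650 in p52Ki, and 14033 to 14793 genes had a count in WT against 15504 to 16634 in p52Ki. The 38 chaperone genes took 1.28 to 1.73% of the counts of a WT library and 1.08 to 1.34% of a p52Ki library. Levels are CPM, counts of a gene per 1000000 counts, with library sizes adjusted by edgeR's TMM factors, with the mean ± SD of 4 WT and 5 p52Ki libraries. All 8 B cell markers were detected in each library, with a summed level of 11880 to 12955 CPM in WT and 13074 to 16387 CPM in p52Ki. Of 8 germinal centre markers, 6 were called lower in p52Ki and all 8 had negative log2 fold changes at an unadjusted p under 0.05, with sums of 2807 to 3688 CPM in WT and 761 to 1664 CPM in p52Ki. The sums were 0 to 8.58 and 0 to 20.99 CPM for 10 T and NK cell markers, and 104 to 238 and 211 to 328 CPM for 10 myeloid markers, of which S100a8 and S100a9 were at 0. Stromal and endothelial markers summed to 39.2 to 107 and 115 to 265 CPM, with Col1a1, Col1a2, Col3a1 and Ccl19 at 0 in all libraries. Only 1 stromal or endothelial marker was tested, and it was called higher in p52Ki (log2 fold change 1.36). Called higher were also 1 of 8 B cell markers and 0 of 7 myeloid markers tested, with 0 called lower in either list. Plasma cell markers summed to 1468 to 1939 and 795 to 1368 CPM. The plasma cell markers were mixed one by one. Of 5 tested, 1 was called higher and 1 lower in p52Ki, with 3 positive and 2 negative log2 fold changes and a median of 0.14. Nfkb2 averaged 136 CPM in WT against 208 CPM in p52Ki (log2 fold change 0.61, edgeR adjusted p = 0.0987), and counts per gene do not separate a modified allele from an unmodified one. The parts of other cells and of the germinal centre stage in the chaperone results were not tested. In bulk RNA, fewer cells of a type and less RNA per cell cannot be told apart.

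Promoters were read because the inducible members are known targets of HSF1. RefSeq windows of 300 bases (250 before and 50 after a start, build GRCm38.p6) were found for 32 of the 38 genes, in 41 windows. The patterns searched were GAANNTTC and TTCNNGAA, each of which reads the same on both strands and stands for 2 facing units of a heat shock element. Where another unit followed in the alternating order, the run counted as 3 units. Capitals mark the matched letters in all the sequences that follow. Stretches around the match, each before a RefSeq start, are shown for the 2 HSP70 genes with the largest change, for the small heat shock protein gene Hspb1 and for Cct2, as examples of inducible and constitutive genes.
Hspa1a (chr17:34972233-34972280, minus strand) and Hspa1b (chr17:34959315-34959362, minus strand), identical here: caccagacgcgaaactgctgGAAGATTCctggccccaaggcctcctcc
Hspb1 (chr5:135887782-135887849, plus strand): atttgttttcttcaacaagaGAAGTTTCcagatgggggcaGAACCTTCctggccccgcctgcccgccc
Cct2 (chr10:117063390-117063437, minus strand): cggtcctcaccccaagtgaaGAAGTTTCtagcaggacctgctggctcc
For the members with 3 units or more, and for Cct5, the longest matched run alone is shown, since the bases around most of these lie in annotated exons. The Hsph1 run lies after its RefSeq starts, that of Chordc1 spans the start, and the other runs lie before a start. Before its starts, Hsph1 held only a match of 2 units.
Hspe1: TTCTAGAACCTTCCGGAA
Hspd1: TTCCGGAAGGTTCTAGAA
Chordc1: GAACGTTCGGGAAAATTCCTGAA
Hsph1: TTCTGGAAAGTTC
Dnajb6: GAATCTTCCGGAA
Cct5: TTCCAGAA
The Cct2 stretch precedes a second, downstream RefSeq start and lies inside the annotated gene, and the window at the upstream start of Cct2 held no match. Hspe1 and Hspd1 share 1 promoter and lie on opposite strands, so theirs is the same run read from either side. A match of 2 units was present in 18 of the 41 windows (43.9%), of 16 genes, and in 15.1% of the 32851 windows of all genes. A match of 3 units was present in 7 windows (17.1%), of 5 genes, and in 0.603% of all windows. Dnajb6 and Hsph1 had overlapping windows that held the same matches, which are counted in each window. Of the 10 windows of strongly heat-inducible members, 7 held a match of 2 units (70.0%), against 11 of the 31 windows of other members (35.5%). By 3 units the classes were closer, with 2 of the 10 windows (20.0%, Hsph1 alone) against 5 of the 31 (16.1%). Of the 6 genes called lower in p52Ki, 5 held a match and Tcp1 did not. Of the 26 other genes with a window, 11 did. Cct5, like Cct2, also had a window without a match. Among the other genes with a match, Dnaja1, Dnajb4 and Hspd1 had such windows too. The Hspd1 run precedes a downstream RefSeq start, and the window at the upstream start of Hspd1 held no match. The share per gene over all genes was not counted, and genes with several windows had more chances of a match. A difference between called and other genes was not tested. The promoter windows of Hspa1a and Hspa1b differed at 4 of 300 bases (98.7% identical). A match of letters is a description of the sequence and does not show that a factor binds there.

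Hspa1a and Hspa1b encode nearly the same stress-inducible HSP70 protein, from a pair of neighbouring genes on chromosome 17 (34969190 to 34972156 and 34956436 to 34959238, minus strand, GRCm38). Hspa1a stood at 262, 187, 116 and 632 CPM in WT 1 to 4 and at 19.3, 1.94, 20.2, 16.4 and 19.8 CPM in p52Ki 1 to 5. All 5 p52Ki libraries were low, the groups did not overlap, and WT 4 was the highest by far. The log2 fold change was -4.27 ± 0.60 (SE; 299 ± 229 CPM in WT, 15.5 ± 7.74 CPM in p52Ki; edgeR adjusted p = 0.00266). Hspa1b stood at 36.4, 22.1, 21.2 and 86.5 CPM in WT and at 2.76, 0.176, 2.26, 3.68 and 2.61 CPM in p52Ki. The order of libraries resembled that of Hspa1a at both ends, with WT 4 on top and p52Ki 2, with a count of 1 for Hspa1b and 11 for Hspa1a, at the bottom. Its log2 fold change was -4.16 ± 0.67 (41.6 ± 30.8 CPM in WT, 2.30 ± 1.30 CPM in p52Ki; edgeR adjusted p = 0.00456). Without WT 4, the WT mean of Hspa1a was 188 ± 73.0 CPM and that of Hspa1b 26.6 ± 8.50 CPM, and the log2 fold changes were -3.58 and -3.50 (edgeR adjusted p = 0.00731 and 0.0177).

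The 2 genes cannot be separated with confidence. Of the 50-base windows along the exons of Hspa1a, 66.3% occur in another gene, 58.8% in Hspa1b. Their sum was 299, 209, 138 and 718 CPM in WT and 22.1, 2.12, 22.4, 20.1 and 22.4 CPM in p52Ki, so that the gap between the genotypes does not turn on how reads were divided between them. Gm20481 overlaps 564 exon bases of Hspa1a on the opposite strand, the library kit does not mark strand, and Gm20481 moved with it, from a mean of 128 CPM in WT to 5.44 CPM in p52Ki, a log2 fold change of -4.53 (edgeR adjusted p = 0.00433). Reads that fall in the shared bases could belong to either gene. Immediate early genes, which are induced by activation and also by tissue handling, gave 7 calls higher in p52Ki and 0 lower among 16 tested, with 14 positive and 2 negative log2 fold changes and sums of 2544 to 3192 CPM in WT and 3876 to 4468 CPM in p52Ki. The part of cell handling in the HSP70 difference was not tested.

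**Figure D1:**
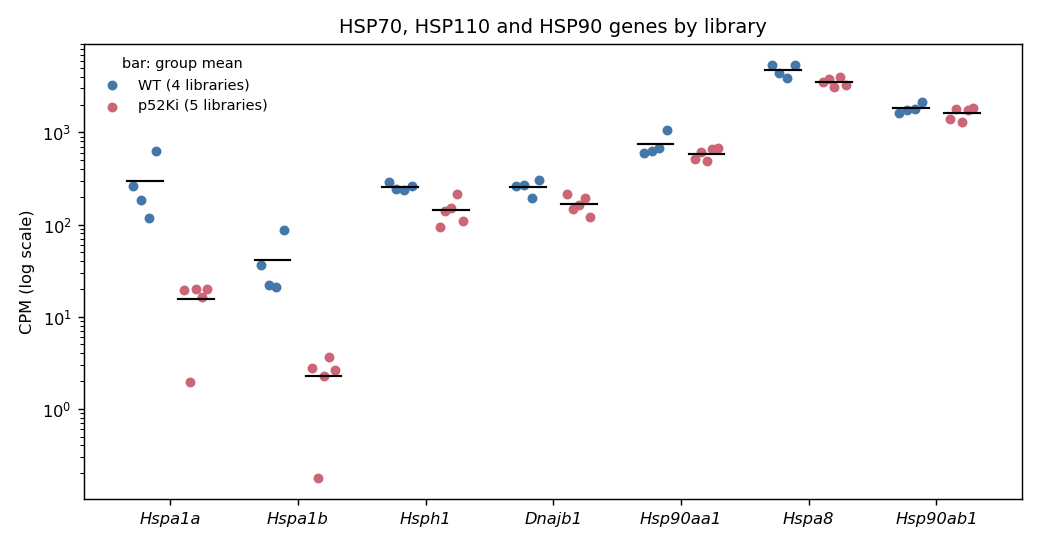
CPM of 7 chaperone genes in each library on a log scale (points: 4 WT and 5 p52Ki libraries; bars: group means). Hspa1a and Hspa1b show a gap between the genotypes, with WT 4 highest (632 and 86.5 CPM) and p52Ki 2 lowest (1.94 and 0.176 CPM), while Hspa8 and Hsp90ab1 overlap.

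Hspa8, the constitutive HSP70 of the cytosol, had the highest level of the 38 genes per annotated exon length, at 1112 CPM per kilobase in WT and 820 in p52Ki. It stood at 5399, 4423, 3884 and 5433 CPM in WT and at 3516, 3816, 3075, 3974 and 3261 CPM in p52Ki. WT 3 lay within the p52Ki range and the other WT libraries above it. The log2 fold change of -0.44 ± 0.13 missed the threshold (edgeR adjusted p = 0.0550), though DESeq2 called it (adjusted p = 0.0221). The pseudogene Gm15459 shares 34.6% of the windows of Hspa8 and was counted at 436 CPM in WT against 320 CPM in p52Ki, so some reads may belong to either. Inducible HSP70 was compared with Hspa8 within each library, as the log2 ratio of the counts of Hspa1a plus Hspa1b to those of Hspa8. The ratio was -4.18, -4.40, -4.82 and -2.92 in WT and -7.31, -10.8, -7.09, -7.62 and -7.18 in p52Ki. Even the lowest WT library lay above all p52Ki libraries. The difference was -3.91, with the smallest p that the exact permutation test allows with 4 and 5 libraries (two-sided, p = 0.00794, 0.0238 adjusted over 6 ratios). The ratio uses the same Hspa1a and Hspa1b counts as the calls above and is not independent of them.

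HSP110 proteins reset HSP70 by exchanging its nucleotide. Hsph1, the heat-inducible HSP110 (chromosome 5, 149614287 to 149636376, minus strand), stood at 288, 241, 235 and 259 CPM in WT and at 93.6, 142, 151, 215 and 109 CPM in p52Ki. The WT libraries were close together, the p52Ki libraries were more widely spread, and the groups did not overlap. The log2 fold change was -0.85 ± 0.22 (256 ± 23.8 CPM in WT, 142 ± 47.1 CPM in p52Ki; edgeR adjusted p = 0.0341). The call was lost when any library other than p52Ki 4 was left out, with adjusted p up to 0.0861. Hspa4, a constitutive HSP110, stood at 413, 469, 310 and 429 CPM in WT and at 204, 214, 296, 363 and 239 CPM in p52Ki. Only p52Ki 4 overlapped the WT range, and the log2 fold change of -0.62 ± 0.19 missed the threshold (edgeR adjusted p = 0.0694; DESeq2 adjusted p = 0.0241; without p52Ki 4, edgeR adjusted p = 0.0235). Hspa4l, a scarcer relative, was at 18.0 ± 10.9 CPM in WT against 20.6 ± 6.73 CPM in p52Ki, and its log2 ratio to Hspa4 was higher by 1.01 in p52Ki without passing (exact permutation p = 0.167, adjusted 0.250). Hspa14, a ribosome-associated HSP70, was at 186 ± 27.2 CPM in WT against 128 ± 36.2 CPM in p52Ki (log2 fold change -0.54 ± 0.21, edgeR adjusted p = 0.156).

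J-domain proteins deliver clients to HSP70 and start its ATP cycle, and 0 of 5 were called. Dnajb1, the inducible partner of HSP70, had the smallest p of these, at 261, 266, 194 and 304 CPM in WT and 213, 149, 162, 192 and 121 CPM in p52Ki. WT 3 lay below p52Ki 1, and the log2 fold change of -0.61 ± 0.19 missed the threshold (256 ± 45.7 CPM in WT, 167 ± 36.2 CPM in p52Ki; edgeR adjusted p = 0.0701, DESeq2 adjusted p = 0.0319). Dnaja2, a constitutive partner, had a log2 fold change of -0.40, Dnajb6, which holds back protein aggregation, one of -0.20, and Dnaja1, also an HSP70 partner, one of -0.12 (edgeR adjusted p from 0.246 to 0.769). Dnajb4, scarce here and strongly heat-inducible, had the opposite sign, at 9.17 ± 5.45 CPM in WT against 19.0 ± 7.17 CPM in p52Ki (log2 fold change 1.05 ± 0.51, edgeR adjusted p = 0.261).

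Of the remaining helpers, Bag1, an exchange factor of HSP70, was at 22.9 ± 9.65 CPM in WT against 17.9 ± 5.46 CPM in p52Ki (edgeR adjusted p = 0.691). Bag3, its heat-inducible relative that links HSP70 to small heat shock proteins and autophagy, was at 3.07 ± 2.15 and 4.31 ± 4.39 CPM. Hspb1, the small heat shock protein HSP27, had 1.70 ± 2.23 and 2.33 ± 1.90 CPM, and other genes share 50.1% of its 50-base windows. Bag3 and Hspb1 were the 2 members with means under 10 CPM in both genotypes, each had libraries with a count of 0, and their log2 fold changes of 0.49 ± 1.29 and 0.45 ± 1.48 bound little (edgeR adjusted p = 0.888 and 0.916).

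The 8 genes that respond most strongly to heat by textbook knowledge (Hspa1a, Hspa1b, Hsph1, Dnajb1, Dnajb4, Bag3, Hspb1 and Hsp90aa1) gave mixed results. Of these, 3 were called lower and 5 were not called, and 3 log2 fold changes were above 0, at a median of -0.47. The 15 other cytosolic chaperones had 0 calls, 4 at an unadjusted p under 0.05, 14 negative values and a median of -0.29. Without the 8 inducible genes, the median of the remaining 30 was -0.32, with 3 called lower. A difference between the 2 classes was not tested.

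**Figure D2:**
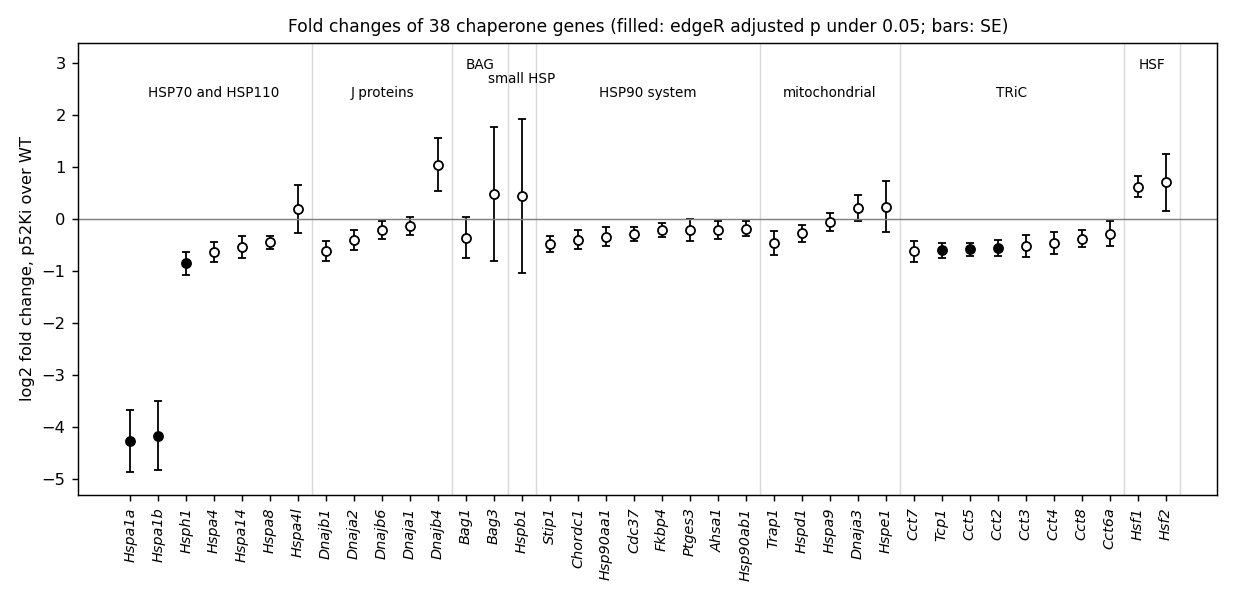
Log2 fold change of p52Ki over WT for the 38 chaperone genes by role (points; bars: SE; filled points: edgeR adjusted p under 0.05). Hspa1a and Hspa1b lie near -4, all 8 HSP90 system genes and all 8 TRiC subunits lie below 0, and both heat shock factors lie above 0.

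HSP90 and its partners were lower in p52Ki by sign, and none was called: 8 of 8 log2 fold changes were negative, from -0.48 to -0.18, with a median of -0.25 and 1 unadjusted p under 0.05. Hsp90ab1, the constitutive HSP90, stood at 1629, 1742, 1773 and 2151 CPM in WT and at 1403, 1799, 1308, 1732 and 1825 CPM in p52Ki. The groups overlapped widely, and the log2 fold change was -0.18 ± 0.14 (edgeR adjusted p = 0.515). Hsp90aa1, the inducible form, stood at 600, 622, 685 and 1060 CPM in WT and at 512, 607, 483, 659 and 683 CPM in p52Ki. Over all 9 libraries the log2 fold change was -0.33 ± 0.18 (742 ± 215 CPM in WT against 589 ± 88.2 CPM in p52Ki; edgeR adjusted p = 0.333). WT 4 stood apart here too: without it the WT mean was 636 ± 44.3 CPM and the log2 fold change -0.09 (edgeR adjusted p = 0.821). The log2 ratio of Hsp90aa1 to Hsp90ab1 was -1.33 ± 0.21 in WT and -1.45 ± 0.07 in p52Ki, a difference of -0.12 (exact permutation p = 0.278, adjusted 0.333). The inducible share of HSP90 thus overlapped between genotypes, while that of HSP70 did not.

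Stip1, which hands clients from HSP70 to HSP90, had the smallest p among the HSP90 partners, at 395, 346, 264 and 383 CPM in WT and 275, 261, 211, 277 and 221 CPM in p52Ki. WT 3 lay within the p52Ki range and the log2 fold change was -0.48 ± 0.15 (edgeR adjusted p = 0.0829, DESeq2 adjusted p = 0.0468). Cdc37, which brings kinases to HSP90, was at 274 ± 41.2 CPM in WT against 224 ± 13.8 CPM in p52Ki (edgeR adjusted p = 0.240). Chordc1, a zinc-binding partner of HSP90, had 129 ± 28.5 and 98.6 ± 9.77 CPM (edgeR adjusted p = 0.238), and Fkbp4, an immunophilin of steroid receptor complexes, at 299 ± 46.4 and 258 ± 11.6 CPM (edgeR adjusted p = 0.415). Ahsa1, which speeds the ATPase of HSP90, was at 218 ± 38.5 and 189 ± 33.5 CPM, and Ptges3, the cochaperone p23, at 83.0 ± 13.6 and 71.9 ± 17.2 CPM, again without a call (edgeR adjusted p = 0.568 and 0.656). Of 29 further cytosolic cochaperones tested, 0 were called, 4 had an unadjusted p under 0.05 and 21 were negative, with a median of -0.14. Dnajc7, a J-domain protein that binds HSP70 and HSP90, had the smallest p of these, at 325 ± 72.2 CPM in WT against 475 ± 84.2 CPM in p52Ki (log2 fold change 0.54 ± 0.18, edgeR adjusted p = 0.0898).

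All 8 subunits of TRiC were lower in p52Ki by sign, 7 of them at an unadjusted p under 0.05, and 3 passed the threshold. The chamber is built of rings of 8 different subunits. The log2 fold changes lay in a narrow band from -0.61 to -0.28, with a median of -0.53. Cct5 (chromosome 15, 31590800 to 31601804, minus strand) stood at 880, 778, 712 and 828 CPM in WT and at 526, 631, 427, 562 and 531 CPM in p52Ki. The groups did not overlap, and the log2 fold change was -0.58 ± 0.13 (799 ± 71.6 CPM in WT, 535 ± 73.6 CPM in p52Ki; edgeR adjusted p = 0.0195). Tcp1 (chromosome 17, 12915701 to 12925067, plus strand) stood at 589, 477, 525 and 587 CPM in WT and at 272, 422, 315, 395 and 392 CPM in p52Ki. These groups were separate as well, with a log2 fold change of -0.60 ± 0.15 (544 ± 54.0 CPM in WT, 359 ± 62.7 CPM in p52Ki; edgeR adjusted p = 0.0296). Acat3 overlaps 571 exon bases of Tcp1 on the opposite strand and averaged 127 CPM in WT against 82.6 CPM in p52Ki (log2 fold change -0.62, edgeR adjusted p = 0.0940). Cct2 (chromosome 10, 117051001 to 117063814, minus strand) stood at 247, 235, 371 and 319 CPM in WT and at 192, 199, 199, 215 and 194 CPM in p52Ki. The p52Ki libraries were tightly grouped below the lowest WT library, and the log2 fold change was -0.55 ± 0.15 (293 ± 63.8 CPM in WT, 200.1 ± 9.09 CPM in p52Ki; edgeR adjusted p = 0.0466).

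Cct7 was separate between genotypes without being called, at 589, 519, 498 and 619 CPM in WT and 215, 457, 366, 458 and 324 CPM in p52Ki (log2 fold change -0.61 ± 0.20, edgeR adjusted p = 0.0884, DESeq2 adjusted p = 0.0369). Cct3, Cct4, Cct8 and Cct6a overlapped between genotypes, with log2 fold changes of -0.51, -0.46, -0.37 and -0.28 (edgeR adjusted p = 0.179, 0.220, 0.208 and 0.573). On the opposite strand, Psph overlaps 452 exon bases of Cct6a, Pradc1 214 of Cct7 and Usp16 192 of Cct8. The log2 fold changes of Psph, Pradc1 and Usp16 were -0.69, -0.61 and 0.18 (edgeR adjusted p = 0.235, 0.224 and 0.785). The calls were not firm: Cct5 was lost without WT 1, WT 4 or p52Ki 3 (adjusted p up to 0.0604), and Tcp1 without WT 1, WT 3, WT 4, p52Ki 1 or p52Ki 3 (up to 0.0879). Cct2 was called without WT 2 and lost without each of the other 8 libraries (up to 0.155), and it was also lost with DESeq2's size factors in edgeR (0.0559), without the filter on low counts (0.0856), with a stricter filter (0.0518) and in limma (0.0504). Per kilobase of all annotated exons, Cct5 was highest (289 CPM in WT, 194 CPM in p52Ki) and Cct3 lowest (63.4 and 44.3 CPM), a 4.56-fold range in WT and 4.36-fold in p52Ki. Annotated exon length was 2766 bases for Cct5 and 6370 for Cct3, and the length of the transcripts made in these cells was not measured, so this order may follow the annotation. Within p52Ki, 6 of the 8 subunits were lowest in p52Ki 1 and 5 highest in p52Ki 4. Within WT, 5 were highest in WT 4.

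**Figure D3:**
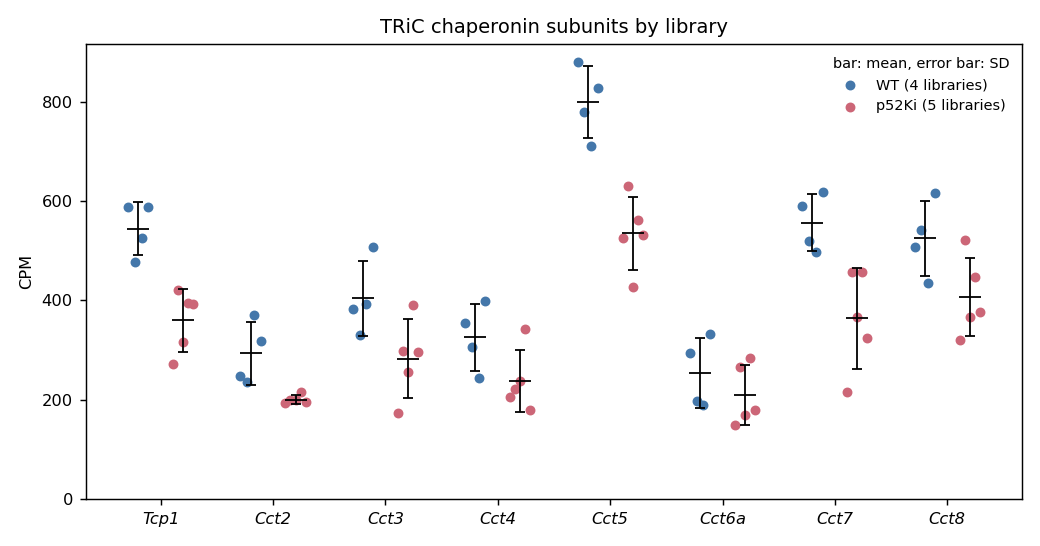
CPM of the 8 TRiC subunits in each library (points: 4 WT and 5 p52Ki libraries; bars: mean, error bars: SD). Means are lower in p52Ki for all 8 subunits, and Tcp1, Cct2, Cct5 and Cct7 do not overlap between genotypes.

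Summed levels of TRiC and of genes of DNA replication were set side by side. The 8 subunits summed to 3842, 3386, 3366 and 4207 CPM in WT and to 2052, 3014, 2335, 3094 and 2471 CPM in p52Ki. The sum of 20 S phase genes was 9515, 7838, 7838 and 8138 CPM in WT and 2856, 4594, 3762, 5997 and 3190 CPM in p52Ki. Neither sum overlapped between genotypes, and within p52Ki both were lowest in p52Ki 1 and highest in p52Ki 4. Both sums were next highest in p52Ki 2. Of the p52Ki libraries, only p52Ki 3 and p52Ki 5 changed places, with p52Ki 5 above p52Ki 3 for TRiC and below it for S phase genes. The highest WT library was WT 4 for TRiC and WT 1 for S phase genes. Of the S phase genes, 16 of 20 were called lower, at a median of -0.94 in log2 fold change. Among 20 G2 and M phase genes, 16 were called lower, with a median of -1.27 and sums of 6340 to 7853 CPM in WT and 1717 to 4981 CPM in p52Ki. The median over TRiC of -0.53 was smaller in size than either. The part of cell division in the TRiC difference was not tested.

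**Figure D4:**
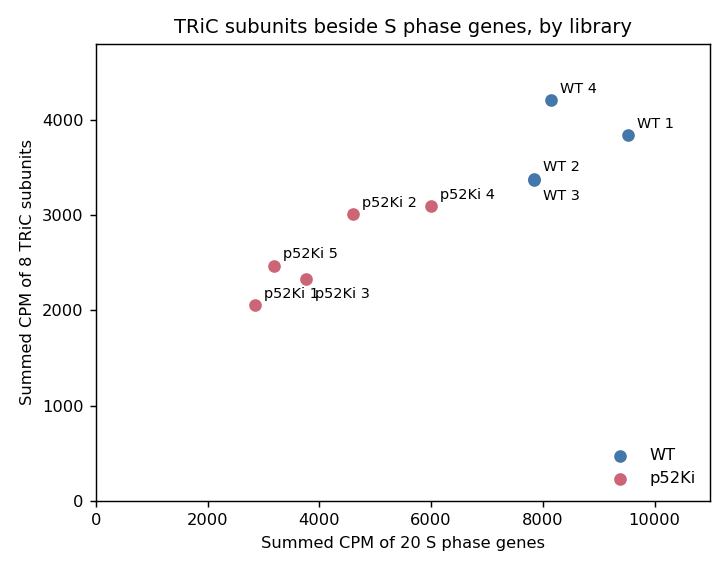
Summed CPM of the 8 TRiC subunits (y axis) against summed CPM of 20 S phase genes (x axis), with 1 point per library. The 4 WT libraries lie at 3366 CPM of TRiC or more and the 5 p52Ki libraries at 3094 CPM or less, with p52Ki 1 lowest and p52Ki 4 highest of p52Ki on both axes.

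Among 12 actin and tubulin genes, which encode the main clients of TRiC, 5 were called lower and 0 higher, with 9 negative and 3 positive log2 fold changes and a median of -0.68. All 5 called were tubulin genes. The actin genes Actb and Actg1, named after their values were seen, were not called (log2 fold changes -0.23 and -0.43, edgeR adjusted p = 0.372 and 0.151). Tuba1a went from 348 ± 53.2 CPM in WT to 154 ± 46.2 CPM in p52Ki (log2 fold change -1.17 ± 0.22, edgeR adjusted p = 0.00898). Tuba1b went from 1319 ± 151 to 593 ± 254 CPM (-1.15 ± 0.26, edgeR adjusted p = 0.0192), Tubb5 from 2278 ± 174 to 1429 ± 316 CPM (-0.67 ± 0.15, edgeR adjusted p = 0.0198) and Tubb4b from 613 ± 89.1 to 301 ± 120 CPM (-1.03 ± 0.25, edgeR adjusted p = 0.0270). These 4 encode α- or β-tubulin, and the fifth, Tuba1c, named after its values were seen, is another α-tubulin (log2 fold change -1.10, edgeR adjusted p = 0.0373). Tuba4a and Tubb2a, also tubulin genes and named after their values were seen, had every p52Ki library above every WT library without being called (log2 fold changes 0.58 and 2.18, edgeR adjusted p = 0.172 and 0.187). Tubulin genes resemble one another in sequence, so reads may be divided unevenly among them. Prefoldin hands such clients to TRiC, and of 14 prefoldin and TRiC cofactor genes 0 were called, 1 had an unadjusted p under 0.05, 6 were negative and the median was 0.09. That gene was Vbp1, a prefoldin subunit, at 132 ± 19.3 CPM in WT against 98.6 ± 13.1 CPM in p52Ki (log2 fold change -0.42 ± 0.17, edgeR adjusted p = 0.159).

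The 5 mitochondrial chaperones gave 0 calls, 0 unadjusted p under 0.05 and a median log2 fold change of -0.04. Hspd1 and Hspe1 encode HSP60 and HSP10, the barrel and the lid of the mitochondrial chaperonin, and start 111 bases apart on opposite strands of chromosome 1, with first exons that overlap by 112 bases. Hspd1 stood at 307, 249, 260 and 320 CPM in WT and at 176, 264, 206, 258 and 276 CPM in p52Ki. The groups overlapped, and the log2 fold change was -0.27 ± 0.16 (edgeR adjusted p = 0.392). Hspe1 stood at 25.7, 54.6, 32.4 and 61.9 CPM in WT and at 31.9, 28.6, 32.5, 32.5 and 133 CPM in p52Ki. Its p52Ki mean of 51.7 ± 45.6 CPM was set by p52Ki 5 and was 31.4 ± 1.88 CPM without it, which turned the log2 fold change from 0.24 to -0.46 (edgeR adjusted p = 0.853 and 0.473). The log2 ratio of Hspd1 to Hspe1 was 2.78 ± 0.63 in WT and 2.47 ± 0.85 in p52Ki (exact permutation p = 0.611, adjusted 0.611).

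Hspa9, the mitochondrial HSP70 that pulls proteins in through the inner membrane, was at 158 ± 30.0 CPM in WT against 154 ± 20.6 CPM in p52Ki (log2 fold change -0.04 ± 0.17, edgeR adjusted p = 0.929). Dnaja3, its J-domain partner, was at 75.8 ± 15.6 and 88.1 ± 27.2 CPM, and Trap1, the mitochondrial HSP90, at 221 ± 59.5 and 161 ± 39.6 CPM, and neither was called (edgeR adjusted p = 0.699 and 0.279). Of 19 genes of mitochondrial import and quality control, 0 were called, 3 had an unadjusted p under 0.05 and 14 were negative, with a median of -0.13. Timm50, a receptor of the inner membrane import channel, had the smallest p, at 152 ± 28.0 CPM in WT against 103 ± 20.8 CPM in p52Ki (log2 fold change -0.56 ± 0.20, edgeR adjusted p = 0.111).

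Of 14 chaperone genes of the endoplasmic reticulum, 3 were called higher in p52Ki, 0 were called lower and 11 were not called, with 10 positive and 4 negative log2 fold changes and a median of 0.14. A difference between this list and the cytosolic genes was not tested. Hsp90b1, the HSP90 of that compartment, went from 413 ± 58.8 CPM in WT to 859 ± 172 CPM in p52Ki (log2 fold change 1.06 ± 0.16, edgeR adjusted p = 0.00414). Pdia4, a disulfide isomerase, went from 158 ± 25.9 to 339 ± 78.9 CPM (1.10 ± 0.19, edgeR adjusted p = 0.00680) and Dnajb9, a J-domain protein, from 45.3 ± 13.1 to 112 ± 22.8 CPM (1.30 ± 0.25, edgeR adjusted p = 0.0102). The log2 ratio of Hsp90b1 to Hsp90ab1 was -1.97, -1.91, -2.43 and -2.28 in WT and -0.94, -0.66, -0.82, -1.15 and -1.02 in p52Ki. No library crossed between the groups, and the difference was 1.23 (exact permutation p = 0.00794, adjusted 0.0238). The ratio uses the same Hsp90b1 counts as the call above and is not independent of it. Hspa5, the HSP70 of the endoplasmic reticulum, was at 1349 ± 68.7 CPM in WT against 1396 ± 238 CPM in p52Ki (edgeR adjusted p = 0.891), and its log2 ratio to Hspa8 was higher by 0.47 in p52Ki without passing after adjustment (exact permutation p = 0.0476, adjusted 0.0952).

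**Figure D5:**
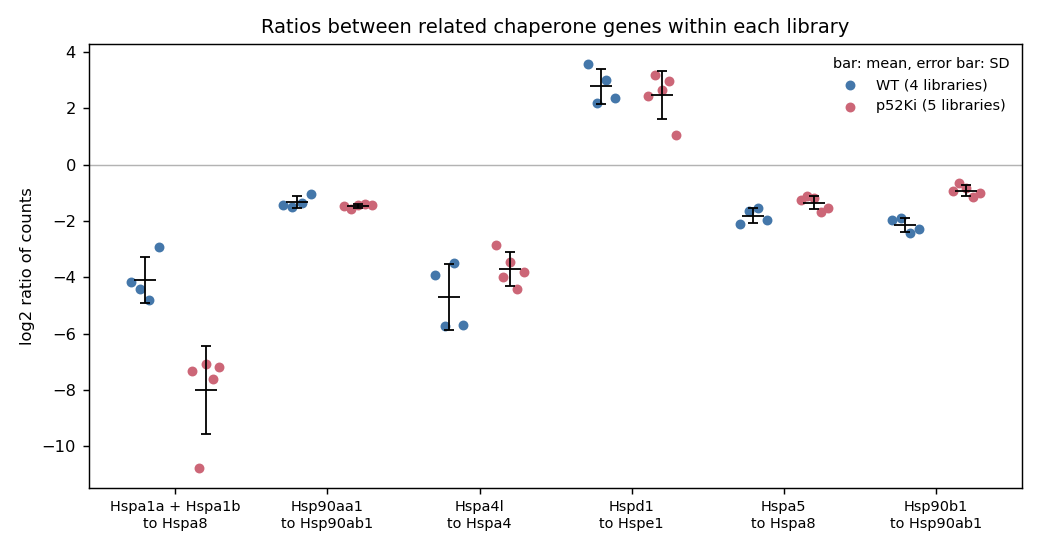
Log2 ratios of counts between related chaperone genes within each library (points: 4 WT and 5 p52Ki libraries; bars: mean, error bars: SD). Hspa1a plus Hspa1b to Hspa8 differs by -3.91 in p52Ki and Hsp90b1 to Hsp90ab1 by 1.23, each with no overlap between genotypes, while the other 4 ratios overlap.

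The 2 heat shock factors had positive fold changes that did not pass. Hsf1, which drives the heat-induced response, stood at 80.3, 72.6, 63.0 and 117 CPM in WT and at 130, 124, 142, 105 and 143 CPM in p52Ki. WT 4, the library with the most Hspa1a, was the WT library with the most Hsf1 and lay above p52Ki 4, and the log2 fold change was 0.63 ± 0.20 (83.3 ± 23.7 CPM in WT, 129 ± 15.7 CPM in p52Ki; edgeR adjusted p = 0.0835). DESeq2 called it higher (adjusted p = 0.0280), as did edgeR without WT 4 (log2 fold change 0.86, adjusted p = 0.0287). Hsf2, a relative with roles in development, was scarce, at 7.02 ± 4.16 CPM in WT against 11.5 ± 3.87 CPM in p52Ki (log2 fold change 0.71 ± 0.55, edgeR adjusted p = 0.521). HSF1 is controlled chiefly after translation, and its activity was not measured.

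Across the 38 genes, the highest of the 9 libraries was WT 4 for 17 and WT 1 for 7, and the lowest was p52Ki 1 for 13 and p52Ki 3 for 8. Leaving out WT 4 brought the median log2 fold change of the 38 genes from -0.34 to -0.21 and the number called lower from 6 to 2 (Hspa1a and Hspa1b). The drop to 2 calls was not particular to WT 4. Leaving out WT 1 or p52Ki 3 left the same 2 genes called, with medians of -0.32 and -0.30. Hspa1a and Hspa1b were called lower in all 16 alternative fits, with log2 fold changes from -4.51 to -3.58 and from -4.37 to -3.50.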

How the data were processed

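SMART-Seq v2 cDNA from column-purified RNA, which carries no strand mark or molecular identifiers, was sequenced as paired-end Nextera XT libraries, per the labels' protocols. The submitters' processing notes name featureCounts (Subread 1.6.2), HISAT2 2.1.0, SAMtools 1.8 and the build GRCm38. The annotation release, strand setting and treatment of multiply mapped reads were not given in the sources used here. Deposited by the authors were raw counts for 55536 genes, and log2 CPM values for 12849 genes. The deposited log2 values equalled edgeR's TMM-scaled log2 CPM of the counts (prior count 2, largest difference 4.97e-14).

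Counts were tested in R 4.3.3 with edgeR 4.0.16 (filterByExpr, TMM, robust quasi-likelihood F test, no covariate, all 9 libraries, Benjamini-Hochberg threshold 0.05). SE is the size of the log2 fold change divided by the root of the F statistic. Ratios used counts plus 0.5 and exact permutation of libraries. Alternatives were other size factors, filters and tools (DESeq2 1.42.0, limma 3.58.1), a GC content and length correction, a replicate block and leaving out each library. Scripts were tested on simulated data. Gene positions, exon overlaps and shared 50-base windows came from GENCODE's GRCm38 annotation, in which all 55536 identifiers matched, and promoters from RefSeq. Members and lists were chosen with earlier results of these data known. All 38 members are named whatever their result, as are Hsp90b1 and Hspa5 as partners in ratios. Of each other chaperone, client or cofactor list, up to 4 called genes of smallest p are named, or the 1 gene of smallest p where none was called. Total counts differ by less than 2-fold, and genes with few counts are measured with less precision.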

Additional observations from a re-analysis of the deposited data

Results flagged for a closer look

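Of 88 groups of libraries examined (38 genes and 6 ratios in each genotype), 3 held a library far from the others by Dixon's criterion at 95%, and chance gives about 1 in 20. Hspa1a in p52Ki 2 stood at 1.94 CPM, with the nearest p52Ki library at 16.4 CPM. The log2 ratio of Hspa1a plus Hspa1b to Hspa8 in the same library was -10.8, with the nearest at -7.62. Without p52Ki 2 the log2 fold change of Hspa1a was -3.98 (edgeR adjusted p = 0.00365) and the difference in the ratio was -3.22. Hspe1 in p52Ki 5 stood at 133 CPM, with the nearest p52Ki library at 32.5 CPM, while its neighbour Hspd1 stood at 276 CPM there, within the range of the other libraries.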

How the results depend on the processing

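The number of the 38 genes called lower in p52Ki was 6, and it was 11 in DESeq2, 2 with the replicate block and 2 to 6 when 1 library was left out. Called higher were 0, and 1 (Hsf1) in DESeq2 and without WT 4 (0 to 1 over the libraries left out). Over all genes, 1096 were called, 1766 in DESeq2, 129 with the replicate block and 625 to 1108 with 1 library left out. The calls were lost by Cct5, Tcp1, Cct2 and Hsph1 with the block (edgeR adjusted p from 0.0891 to 0.165) and kept by Hspa1a and Hspa1b (0.0461 each). Replicate numbers are only labels: libraries of the same number did not deviate together (correlations from -0.042 to -0.009), and the block leaves 3 residual degrees of freedom. With 1 library left out, the ratio of Hspa1a plus Hspa1b to Hspa8 differed by -4.16 to -3.22 and that of Hsp90b1 to Hsp90ab1 by 1.14 to 1.31, with adjusted p from 0.0536 to 0.0857. With the replicate block of 4 pairs these were -4.12 and 1.25 (adjusted p = 0.150), where the smallest exact permutation p is 0.125. The smaller designs hold fewer splits. Between 29 and 31 members were negative in all 16 alternative fits. Depth limits Bag3 and Hspb1, which the filter of 10 CPM in 4 libraries removed.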
